A study of Mus musculus with 48 samples.

Results

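The potassium channel and HCN channel genes of adult mouse sensory neurons in culture are described here. They were taken as every gene whose mouse symbol begins with Kcn, or is one of the Hcn pacemaker channel genes, and which the GENCODE M21 annotation gives as protein coding. The rule found 98 of the 34183 genes in the deposited tables. All 98 had a value above 0 in at least 1 of the 48 libraries, and 68 had one in every library. By role they comprised 17 voltage-gated pore subunits (Kcna, Kcnb, Kcnc, Kcnd), 10 electrically silent modifier subunits (Kcnf, Kcng, Kcns, Kcnv), 5 Kcnq genes and 8 Kcnh genes. There were also 12 auxiliary subunits (Kcnab, Kcne, Kcnip) and 12 calcium- and sodium-activated channel genes and relatives (Kcnma, Kcnmb, Kcnn, Kcnt, Kcnu). The rest were 15 inward rectifiers (Kcnj), 14 tandem-pore leak channels (Kcnk), 4 Hcn genes and Kcnrg. Another 5 matching symbols are noncoding (Kcnmb4os1, Kcnmb4os2, Kcnd3os, Kcnab3os and Kcnq1ot1) and were not members.

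Potassium channels let potassium leave the cell and so set the resting potential, end the action potential and limit repetitive firing. Voltage-gated pores assemble as tetramers, modifier subunits form no channel alone but join Kcnb pores, and auxiliary subunits alter gating or delivery to the membrane. Tandem-pore channels carry the leak current, inward rectifiers hold the resting potential, and HCN channels pass an inward cation current that opens on hyperpolarisation and brings the cell back towards threshold. In dorsal root ganglion neurons, the sensory neurons whose cell bodies lie beside the spinal cord, loss of potassium channel expression after nerve injury is well known and accompanies hyperexcitability.

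All cultures were neuron-enriched dissociated dorsal root ganglion cells of adult wildtype mice, kept in Neurobasal-A with B27. There were 12 groups of 4 libraries. An untransfected group was taken at time 0 (t_0), and all others were transfected at once after isolation and taken at 42 h. A set of 8 groups received an siRNA pool: siCONTROL, or pools against Atf3, Atf4, Jun, Stat3, Klf6, Rest or Alyref (siAtf3, siAtf4, siJun, siStat3, siKlf6, siRest, siAlyref). The other 3 received mRNA: GFP, Atf4 (ATF4_mRNA), or Atf4 with Cebpg (Atf4_mRNA_Cebpg_mRNA). The control siRNA cultures thus differ from time 0 both in time and in having been transfected, which cannot be told apart. The labels do not state that the 4 libraries of a group are separate animals or cultures. The p-values therefore reflect only how far these libraries spread, and that spread may be technical.

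Deposited totals ran from 1539198 to 6621566 estimated counts per library. Each knocked-down gene was lower than in every siCONTROL library, with means between 16.8% (Atf4) and 38.9% (Rest) of the siCONTROL mean. Atf4 stood at 573 to 703 CPM with GFP mRNA, at 8865 to 18229 CPM with Atf4 mRNA and at 10397 to 32242 CPM with both mRNAs, where Cebpg reached 43380 to 94054 CPM against 40.0 to 51.8 CPM with GFP mRNA. Levels below are CPM, the deposited values scaled to a common library size with TMM factors within each table. The deposited values were found to scale with transcript length as TPM-derived counts do, so these CPM are per-length levels and can be compared between genes. The siRNA and mRNA tables were scaled separately, and a level in one is not tested against the other.

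Auxiliary subunits were the most abundant of these transcripts. At time 0 the 10 highest included Kcnab2, a cytoplasmic beta subunit of Kcna channels, at 1185 ± 53.8 CPM (SD, n = 4), then Kcnip3 (367 ± 32.0), Kcnip4 (223 ± 24.2), Kcnip2 (175 ± 27.0), Kcnd1 (167 ± 7.79), Kcnab1 (163 ± 23.2), Kcnt1 (153 ± 30.0), Kcna1 (124 ± 27.4) and Kcna2 (119 ± 20.6). Kcnab2 and Kcnip3 each stood clear of the next gene, and from Kcnip2 downward the neighbours named here were no further apart than their SDs. The Kcnip genes encode calcium-binding partners of Kcnd channels, and Kcnip3 is also known as a transcriptional repressor. At 42 h in siCONTROL Kcnab2 (499 ± 54.9 CPM) and Kcnip3 (118 ± 17.5) still led, and the 10 highest also held Kcnab1 (97.6 ± 10.3), Kcna6 (69.2 ± 1.91), Kcnip4 (69.2 ± 14.6), Kcna1 (62.6 ± 15.3), Hcn2 (41.8 ± 7.18), Hcn3 (41.4 ± 4.85) and Kcnd3 (40.5 ± 3.68). The number of members with a mean of at least 10 CPM went from 51 at time 0 to 32 in siCONTROL, and those of at least 100 CPM from 13 to 2.

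Few promoter windows of these genes hold the motifs searched for, which are those of the factors manipulated here or of their families. RefSeq promoter entries (GRCm38.p6, 250 bases before to 50 after each start) were found for 71 of the 98 members, in 96 windows, and searched on both strands. The AP-1 motif TGANTCA, bound by Fos, Jun and related factors, was in 4 member windows (4.17%, against 7.81% of all 32851 windows): Kcne3, Kcnip3, Kcnip4 and Kcnk2. The C/EBP-ATF composite TGATGNAA was in 3 (3.12%, against 3.97%): Hcn4, Kcnab1 and Kcne2. The CRE TGACGTCA was in 0 (against 1.79%), and TTCAGCACC, a part of the RE1 element bound by Rest, in 1 (1.04%, against 0.371%): Kcnh6. A match describes letters only, and 27 members had no entry to search. Shown are 4 windows, 60 bases around each match with the match in capitals: Kcnip3 and Kcnip4 because they are among the most abundant members, Kcnab1 and Kcnh6 because they changed in comparisons below.
Kcnip3 (AP-1, chr2:127522183-127522242, minus strand, match from -122): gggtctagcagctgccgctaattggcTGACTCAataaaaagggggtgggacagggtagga
Kcnip4 (AP-1, chr5:49285708-49285767, minus strand, match from -82): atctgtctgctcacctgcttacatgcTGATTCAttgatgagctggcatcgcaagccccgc
Kcnab1 (C/EBP-ATF composite, chr3:65108939-65108998, plus strand, match from -49): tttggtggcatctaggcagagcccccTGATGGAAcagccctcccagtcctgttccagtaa
Kcnh6 (RE1 part, chr11:106007937-106007996, plus strand, match from -186): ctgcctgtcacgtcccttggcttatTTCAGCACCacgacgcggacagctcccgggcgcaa

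The change from time 0 to 42 h in control siRNA cultures was a broad loss of potassium channel transcripts. Of the 98 members, 64 passed the filter on low counts; 49 of them were lower at 42 h and 3 were higher by edgeR's quasi-likelihood test (Benjamini-Hochberg adjusted p below 0.05), where 57.9% of all 13448 genes tested were called, 29.2% as lower and 28.7% as higher. The median log2 fold change was -1.39 over the members tested and 0.01 over all genes. Among the 50 members at or above the filter's cutoff of 2.03 CPM in all 8 libraries, 39 were lower, 3 were higher and 8 were not called. A further 5 tested members (Kcng3, Kcng4, Kcnj3, Kcnj11 and Kcnk18) had no siCONTROL library at the cutoff, so they passed through time 0 alone. Of the 34 members not tested, 22 had the higher mean at time 0 and 10 in siCONTROL, none above 2.94 CPM. In bulk RNA, fewer cells of a type and less RNA per cell cannot be told apart.

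**Figure D1:**
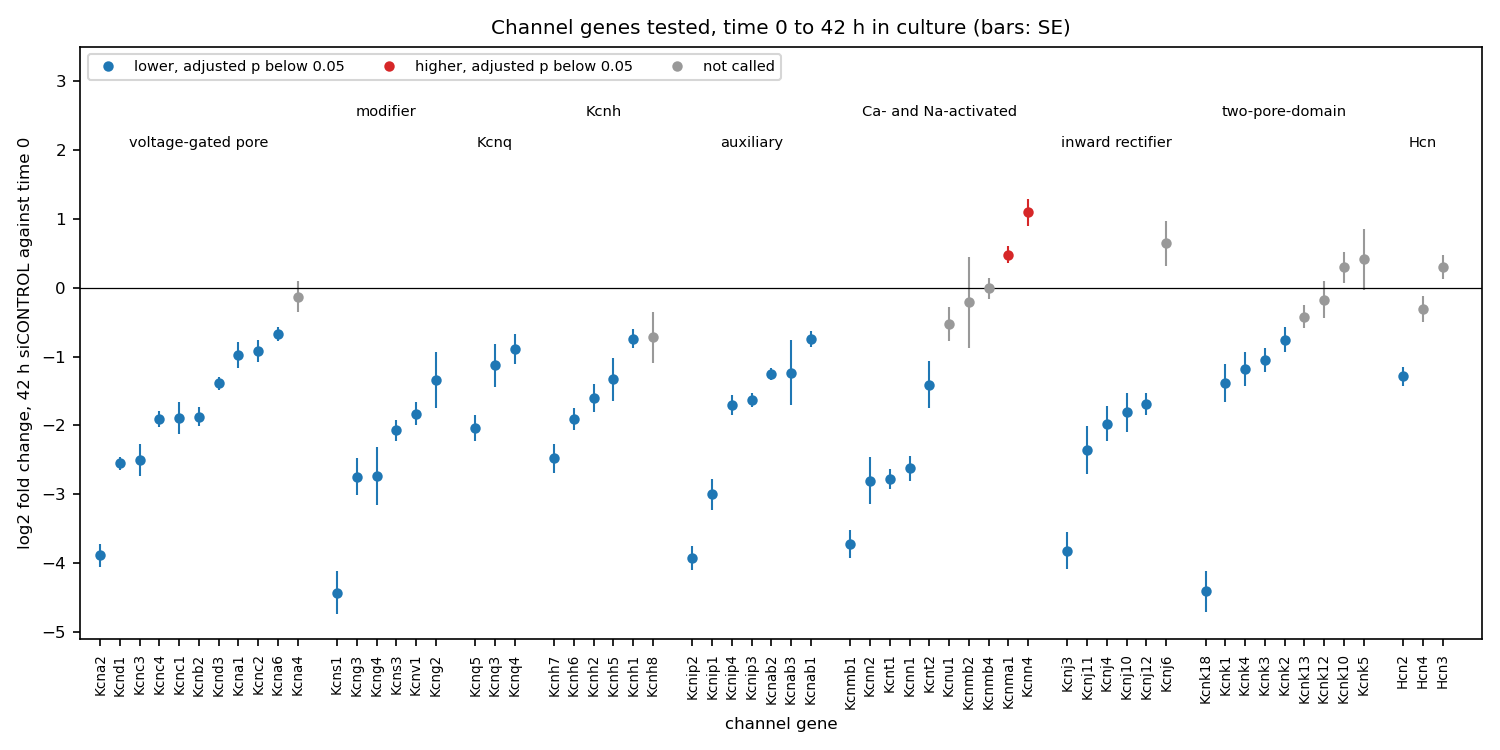
Log2 fold change (y axis) of 61 channel genes tested (x axis, grouped by role), siCONTROL at 42 h against time 0; points are edgeR estimates from 4 libraries a group and bars are SE. Blue marks the 47 of them called lower, red the 2 called higher (Kcnma1, Kcnn4) and grey those not called; the lowest points are Kcns1 at -4.43 and Kcnk18 at -4.41.

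Among the voltage-gated pores, 11 of the 12 tested fell, with log2 fold changes from -3.89 (Kcna2) to -0.67 (Kcna6). Kcna2, a Shaker-type subunit that damps excitability along the axon, stood at 109, 134, 95.8 and 139 CPM at time 0 and at 6.07, 9.02, 7.29 and 9.33 CPM at 42 h. Every time 0 library lay above every siCONTROL library, a 14.8-fold difference (log2 fold change -3.89 ± 0.17, SE; adjusted p = 1.43e-08). Its partner Kcna1 fell less, from 124 ± 27.4 to 62.6 ± 15.3 CPM (SD, n = 4; log2 fold change -0.98 ± 0.19, adjusted p = 0.00107), so that Kcna1 and Kcna2 had like levels at time 0 and stood apart at 42 h. Kcnd1, a Shal-type pore of fast-inactivating A-type current, went from 171, 164, 176 and 158 CPM to 24.5, 31.4, 31.0 and 26.1 CPM, again with no overlap (5.86-fold lower, adjusted p = 4.71e-09). Kcnd3, another A-type pore, was 2.62-fold lower and Kcnd2 was too low to test (0.587 to 1.83 CPM at time 0, 0 to 0.302 CPM at 42 h). The Shab-type delayed rectifier Kcnb2 was 3.67-fold lower, and Kcnc4, a Shaw-type pore used in fast repolarisation, was 3.75-fold lower. Kcna4, the A-type member of the Kcna group, was not called (20.1 ± 4.92 against 18.5 ± 4.53 CPM, SD, n = 4).

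Modifier subunits had the lowest median of the families with a tested member, a log2 fold change of -2.40, with all 6 tested called lower, and their summed level went from 199 to 216 CPM over the time 0 libraries to 28.7 to 47.6 CPM over the siCONTROL libraries. Of these 6, Kcng3 and Kcng4 had no siCONTROL library at the filter's cutoff, and Kcns1 had 2. Kcng3 and Kcng4 thus passed through time 0 alone, and the median and the count rest in part on that filter. Kcns1, a silent subunit of large sensory neurons linked to pain sensitivity, stood at 53.6, 75.7, 40.8 and 70.7 CPM at time 0 and at 1.83, 3.64, 1.30 and 4.16 CPM at 42 h. All time 0 libraries of Kcns1 lay far above all siCONTROL libraries, and the fitted difference was 21.5-fold (log2 fold change -4.43 ± 0.31, SE; adjusted p = 4.31e-07). Kcns3 fell from 68.2 ± 6.26 to 15.9 ± 3.84 CPM, Kcng3 from 8.40 ± 0.475 to 1.21 ± 0.245 CPM and Kcng4 from 6.01 ± 2.18 to 0.849 ± 0.348 CPM (SD, n = 4; all adjusted p at most 0.000181).

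All 7 auxiliary subunits tested fell, and all 4 of the Kcnq genes tested. Kcnip2 stood at 203, 154, 193 and 151 CPM at time 0 and at 8.48, 9.34, 12.3 and 15.8 CPM at 42 h, a 15.2-fold difference with no overlap (adjusted p = 1.73e-08). Kcnip1 was 8.01-fold lower, Kcnip4 3.25-fold, Kcnip3 3.10-fold, Kcnab2 2.38-fold and Kcnab1 1.67-fold. The A-type pore Kcnd1 and its partners Kcnip1 and Kcnip2 ended at 17.1%, 12.5% and 6.57% of their time 0 levels. Kcnq3 and Kcnq5 are subunits of the channels of the M-current, a slow brake on repetitive firing. Kcnq5 was 4.11-fold lower and Kcnq3 2.18-fold lower. In the Kcnh family, whose erg members shape resting excitability, 5 of 6 fell, among them the erg gene Kcnh2 (82.8 ± 21.3 to 27.4 ± 5.32 CPM).

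The calcium- and sodium-activated channel genes and their relatives moved in both directions, with 5 of 10 lower and 2 higher. Kcnt1, a sodium-activated channel that ends bursts, went from 141, 158, 191 and 120 CPM to 23.9, 21.4, 23.4 and 20.6 CPM (6.86-fold lower, adjusted p = 4.67e-08). Kcnmb1, a beta subunit of the large-conductance channel, fell 13.3-fold, while its pore Kcnma1 stood at 23.2, 23.9, 26.1 and 22.0 CPM at time 0 and at 29.8, 30.2, 38.1 and 35.1 CPM at 42 h. For Kcnma1 every siCONTROL library was the higher (1.39-fold; the log2 difference was 0.48 with an SE of 0.12; adjusted p = 0.00577), and the neuronal beta subunit Kcnmb4 was not called (31.0 ± 5.85 against 30.8 ± 3.98 CPM, SD, n = 4). Kcnn4, the intermediate-conductance channel, rose from 11.2, 10.1, 10.8 and 10.2 CPM to 20.8, 15.3, 28.0 and 26.6 CPM, 2.14-fold, with adjusted p = 0.000619 and no overlap. The small-conductance channels Kcnn1 and Kcnn2 went the other way, 6.17-fold and 6.98-fold lower.

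Inward rectifiers and leak channels mostly fell too, 5 of 6 and 5 of 9 tested. Kcnj3, a pore opened by G proteins, fell 14.1-fold, from 18.3 ± 3.40 to 1.2 ± 0.454 CPM, and its partner Kcnj6 was not called (2.09 ± 0.715 against 3.37 ± 0.646 CPM, SD, n = 4). Kcnj11, the pore of the ATP-sensitive channel, was 5.11-fold lower, and Kcnj10, which is known from satellite glia, was 3.51-fold lower. Kcnj3 and Kcnj11 had no siCONTROL library at the filter's cutoff, so both were tested through time 0 alone. Kcnk18, a calcineurin-regulated leak channel of sensory neurons, stood at 10.7, 12.8, 12.9 and 12.4 CPM at time 0 and at 0.707, 0.454, 0.301 and 0.838 CPM at 42 h, a 21.3-fold difference in which all siCONTROL libraries lay below the filter's cutoff. Kcnk1 (2.62-fold), Kcnk4 (2.26-fold) and Kcnk2 (1.68-fold) fell less, and Kcnk10, a mechano- and lipid-gated leak channel like Kcnk2 and Kcnk4, was not called (7.77 ± 0.855 against 9.59 ± 2.55 CPM).

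Among the Hcn genes, Hcn2, the cyclic AMP-sensitive channel of nociceptors, went from 96.2, 114, 84.9 and 115 CPM to 36.8, 51.6, 36.0 and 42.9 CPM, 2.44-fold lower (adjusted p = 1.27e-05). Hcn3 (33.5 ± 8.89 against 41.4 ± 4.85 CPM, SD, n = 4) and Hcn4 (9.98 ± 1.61 against 8.05 ± 0.844 CPM) were not called. Hcn3 was called higher with a replicate block and without t_0 replicate 4 (log2 fold change 0.48, adjusted p = 0.0188 in the latter). Hcn2 thus stood above Hcn3 in every library at time 0, and the 2 were level at 42 h.

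**Figure D2:**
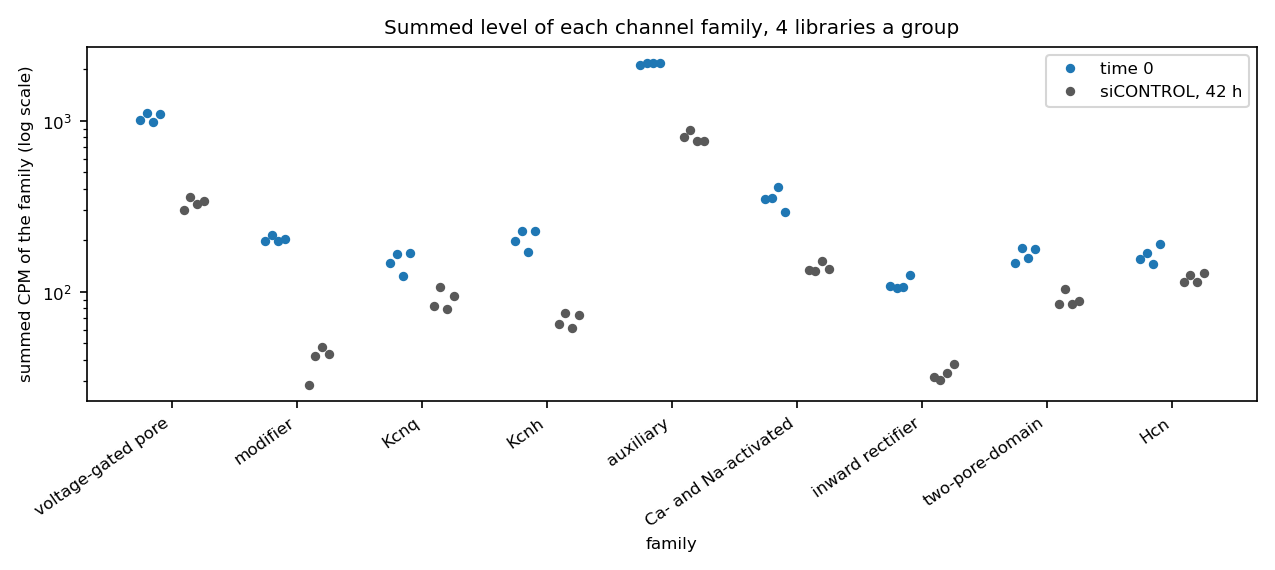
Summed CPM of 9 families of channel genes (y axis, log scale; Kcnrg, at 0 in some libraries of both groups, is not drawn) in the 4 time 0 libraries (blue) and the 4 siCONTROL libraries at 42 h (grey); each point is 1 library. In none of the 9 do the groups overlap; the modifier sum is at most 47.6 CPM at 42 h against at least 199 CPM at time 0, and the Hcn groups are closest (115 to 129 against 146 to 192 CPM).

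Genes that work with these channels, a list that also holds the regulators Rest, Dnmt3a and Ehmt2, fell more often than not. Of 28 such partners, 24 were tested and 18 fell while 3 rose, where 29.2% of all genes tested were called lower and 28.7% higher. Dpp10, a transmembrane dipeptidyl-peptidase-like subunit of Kcnd channels, went from 105 ± 14.7 to 8.67 ± 0.943 CPM and its relative Dpp6 from 328 ± 6.79 to 99.3 ± 9.30 CPM (SD, n = 4). Lgi3, a secreted partner of axonal Kcna complexes, fell 12.9-fold, Cntnap1, which orders the paranode, 4.72-fold, and Abcc8, the sulfonylurea receptor that surrounds Kcnj11, 2.96-fold. Rest, a repressor of neuronal genes that include channels, rose from 1.90 ± 0.096 to 8.40 ± 0.845 CPM (4.42-fold, adjusted p = 1.62e-05), and Dlg1 and Vapa rose 2.02-fold and 1.17-fold.

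Cell type markers moved as well between time 0 and siCONTROL. Pan-neuronal markers were lower in 6 of 10 and higher in 1, with summed levels of 15246 to 16441 against 11007 to 12852 CPM; nociceptor markers were lower in 7 of 8 (5899 to 7715 against 2406 to 2997 CPM) and large-diameter markers lower in 5 of 6 and higher in 1 (1084 to 2017 against 600.0 to 973 CPM). Satellite glia markers were lower in 3 of 7 and higher in 2 (4510 to 5581 against 749 to 875 CPM), and Schwann cell markers lower in 6 of 7 (1957 to 2324 against 1242 to 1470 CPM). Fibroblast markers were higher in 2 and lower in 1 of 5 tested (92.4 to 158 against 69.9 to 118 CPM), macrophage markers higher in 2 and lower in 2 of 4 (10.5 to 15.7 against 27.0 to 46.4 CPM, C1qa at 0 in siCONTROL), endothelial and mural markers higher in 3 and lower in 1 of 6 (142 to 180 against 197 to 249 CPM), and red cell markers lower in 3 of 3 (105 to 134 against 2.02 to 11.3 CPM, Hbb-bt and Alas2 at 0 in siCONTROL). The part of any of these in the fall of the channel genes was not tested.

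At 42 h the shares of tested members called were 13.6% (siAtf3), 10.6% (siJun) and 6.06% (siAlyref), above the 11.5%, 7.78% and 4.26% of all genes. They were 3.03% (siAtf4), 1.52% (siStat3), 1.52% (siKlf6) and 0% (siRest), below the 6.91%, 3.03%, 1.85% and 0.202% of all genes. With all 8 siRNA groups fitted together, 66 members were tested and 32 (48.5%) differed among the groups, where 34.3% of all 14876 genes did. Each knockdown below is set against the same 4 siCONTROL libraries, so the comparisons share their controls. For that reason each called gene was also set against the mean of the other 6 knockdowns, an alternative chosen after seeing the data. That mean moves with every knockdown that changed the gene itself, so it is not a neutral reference. Kcnd3 had an opposite-strand partner, Kcnd3os, in the annotation, whose highest group mean was 2.30 CPM against 23.6 CPM for the lowest group mean of Kcnd3; whether the counting used the strand is not given in the sources used here.

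Atf3 knockdown lowered 8 channel genes and raised 1, where 11.5% of all genes tested were called, 7.49% as lower and 4.0% as higher. Kcnt1 stood at 23.9, 21.4, 23.4 and 20.6 CPM in siCONTROL and at 8.65, 11.3, 7.81 and 11.4 CPM in siAtf3, a 2.26-fold fall with no overlap (log2 fold change -1.18 ± 0.15, SE; adjusted p = 1.32e-06). The erg-family gene Kcnh6 stood at 13.5, 14.4, 15.3 and 9.44 CPM and at 6.48, 6.02, 8.20 and 5.33 CPM, 2.03-fold lower (adjusted p = 0.000151). Both genes had already fallen between time 0 and 42 h in siCONTROL, from 153 and 49.4 CPM, and were lower still with siAtf3. Kcnd3 went from 40.5 ± 3.68 to 26.3 ± 3.10 CPM and Kcnab2 from 499 ± 54.9 to 360 ± 35.8 CPM (SD, n = 4; adjusted p of 0.000114 and 0.000844). Kcnab1 (1.42-fold), Hcn4 (1.41-fold) and Kcnma1 (1.28-fold) were also lower.

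In the other direction, Kcna2 stood at 13.8, 14.2, 11.9 and 13.8 CPM in siAtf3 against 6.07, 9.02, 7.29 and 9.33 CPM in siCONTROL, 1.68-fold higher with no overlap (adjusted p = 0.0105), and still far below its 119 CPM at time 0. Of the 9 genes, 8 were also called against the other knockdowns, where 17.6% of all genes were called and 14 members; Hcn4 was not (log2 fold change -0.20, adjusted p = 0.327). The Hcn4 call also ended without any 1 of 7 of the 8 libraries (all but siCONTROL replicate 4; adjusted p 0.0540 to 0.125), that of Kcnab1 without siCONTROL replicate 4 or siAtf3 replicate 3 or 4 (0.0558 to 0.0641), and that of Kcnma1 without siCONTROL replicate 3 (0.0616). With no filter, with these 2 groups fitted alone and with DESeq2 the Hcn4 call ended too (0.0804 to 0.0998), and with the 2 groups alone that of Kcnma1 (0.0633). Pan-neuronal markers were lower in 7 of 10 in siAtf3, with summed levels of 8995 to 10118 against 11007 to 12852 CPM, and their part in the lower channel levels was not tested.

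Jun knockdown raised 4 channel genes and lowered 3, where 7.78% of all genes tested were called, 3.19% as higher and 4.59% as lower. Kcnd1 stood at 24.5, 31.4, 31.0 and 26.1 CPM in siCONTROL and at 48, 54.8, 43.7 and 50.7 CPM in siJun, 1.73-fold higher with no overlap (log2 fold change 0.79 ± 0.12, SE; adjusted p = 4.87e-05). Kcnv1, a silent subunit, rose from 5.20, 7.48, 8.01 and 9.34 CPM to 16.7, 21.4, 15.4 and 13.8 CPM (2.20-fold, adjusted p = 0.00553). The silent subunit Kcns1 rose from 2.73 ± 1.38 to 5.97 ± 1.04 CPM and Kcnc2, a Shaw-type pore, from 10.2 ± 1.32 to 17.5 ± 4.0 CPM (SD, n = 4; adjusted p of 0.0384 and 0.0026). These 4 genes had fallen between time 0 and 42 h in siCONTROL, and their siJun means lay between the 2, at 49.3 CPM against 167 CPM at time 0 for Kcnd1 and 5.97 CPM against 60.2 CPM for Kcns1. For Kcns1, 2 siCONTROL libraries lay below the filter's cutoff of 1.98 CPM.

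Kcnd3, another A-type pore, was lower in siJun (40.5 ± 3.68 to 29.9 ± 0.675 CPM, SD, n = 4, 1.35-fold, adjusted p = 0.00793), so Kcnd1 and Kcnd3 went opposite ways. Kcns3 (1.48-fold lower, groups overlapping) and Kcnma1 (1.24-fold lower) had adjusted p of 0.0389 and 0.0418. Against the other knockdowns, where 12% of all genes and 13 members were called, Kcnd1 (1.82-fold), Kcnv1 (2.58-fold), Kcns1 (2.14-fold) and Kcnc2 (1.61-fold) were again higher and Kcnd3 lower, and Kcns3 (adjusted p = 0.088) and Kcnma1 (0.051) were not called. Without siCONTROL replicate 1 or 3 or siJun replicate 1, 2 or 4 the Kcns1 call ended (adjusted p 0.0703 to 0.149), without siCONTROL replicate 2, 3 or 4 or siJun replicate 1, 3 or 4 that of Kcns3 (0.0708 to 0.148), and without siCONTROL replicate 3 or 4 or siJun replicate 1, 2 or 4 that of Kcnma1 (0.088 to 0.172). All 3 calls also ended with no filter and with the 2 groups fitted alone (adjusted p 0.0678 to 0.105 for Kcns1, 0.0773 to 0.138 for Kcns3 and 0.0969 to 0.149 for Kcnma1). Nociceptor markers were higher in 5 of 8 in siJun (summed 3364 to 3943 against 2406 to 2997 CPM); their part was not tested.

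Alyref knockdown lowered 4 channel genes and raised 0, where 4.26% of all genes tested were called, 3.37% as lower and 0.881% as higher. Hcn4, the slowest of the pacemaker channels, stood at 8.77, 7.59, 8.74 and 7.09 CPM in siCONTROL and at 3.65, 2.87, 3.98 and 3.43 CPM in siAlyref, 2.30-fold lower with no overlap (adjusted p = 1.08e-05). Kcnip3 went from 115, 144, 104 and 111 CPM to 60.9, 50.9, 62.2 and 58.2 CPM (2.04-fold lower, adjusted p = 1.06e-05). These 2 genes were lower in every siAlyref library than in every siCONTROL library. Kcnd3 went from 40.5 ± 3.68 to 23.6 ± 2.37 CPM and Kcnab2 from 499 ± 54.9 to 308 ± 16.9 CPM (SD, n = 4; adjusted p of 1.71e-05 and 1.34e-05). All 4 were also lower against the other knockdowns, where 7.93% of all genes and 8 members were called, and none of the 4 calls was lost in any alternative run. Pan-neuronal markers were lower in 2 of 10 (10335 to 11262 against 11007 to 12852 CPM summed), which was not tested as a part of the result.

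Atf4 knockdown raised 2 channel genes and lowered 0, where 6.91% of all genes tested were called, 2.74% as higher and 4.17% as lower. Kcnk10 stood at 10.9, 12.5, 7.13 and 7.83 CPM in siCONTROL and at 16.4, 15.7, 15.0 and 15.8 CPM in siAtf4, 1.64-fold higher with no overlap (log2 fold change 0.71 ± 0.20, SE; adjusted p = 0.0243). Kcnma1 stood at 29.8, 30.2, 38.1 and 35.1 CPM and at 41.9, 41.5, 42.2 and 40.0 CPM, 1.24-fold higher (adjusted p = 0.0367). Both had siAtf4 libraries close together above a wider siCONTROL group. Neither call outlasted the loss of single libraries: Kcnk10 without siCONTROL replicate 3 or 4 or siAtf4 replicate 1, 2 or 4 (adjusted p 0.0515 to 0.111), and Kcnma1 without siCONTROL replicate 1 or 2 or any siAtf4 replicate (0.0552 to 0.135). With the 2 groups fitted alone both ended as well (Kcnk10 at 0.0513, Kcnma1 at 0.107), and Kcnma1 with no filter (0.0732). Against the other knockdowns, where 19.8% of all genes (10.5% as higher, 9.28% as lower) and 11 members were called, Kcnk10 was 2.13-fold higher (adjusted p = 9.48e-07) and Kcnma1 1.41-fold (2.08e-06), and all 11 members called were higher. For Kcnma1 that mean holds siAtf3, siJun and siStat3, where it was called lower than in siCONTROL. The siAtf4 libraries are the same in both comparisons, so the second is no separate check. Pan-neuronal markers were higher in 3 of 10 against siCONTROL (11364 to 12386 against 11007 to 12852 CPM summed) and the nociceptor marker P2rx3 was lower; their part was not tested.

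Stat3, Klf6 and Rest knockdown gave 1, 1 and 0 called channel genes, where 3.03%, 1.85% and 0.202% of all genes tested were called. With siStat3 Kcnma1 went from 29.8, 30.2, 38.1 and 35.1 CPM to 20.5, 23.8, 28.9 and 26.9 CPM (1.33-fold lower, adjusted p = 0.0101), a call that ended without siCONTROL replicate 3 or siStat3 replicate 1 (0.0576 to 0.066) or with the 2 groups fitted alone (0.225). With siKlf6 Kcnc4 went from 25.0, 30.0, 22.9 and 28.0 CPM to 14.5, 20.7, 18.5 and 15.3 CPM (1.5-fold lower, adjusted p = 0.0331), which ended without siCONTROL replicate 1, 2 or 4 or siKlf6 replicate 1, 4 or 5 (0.0514 to 0.123), and with no filter or the 2 groups alone (0.0601 to 0.192). Neither pair of groups overlapped. Pan-neuronal markers were lower in 2 of 10 with siStat3 (10042 to 12036 CPM summed) and in 0 with siKlf6; their part was not tested. Against the other knockdowns Kcnma1 (1.27-fold lower) and Kcnc4 (1.44-fold lower) were again called, among 7 members for siStat3 (8.24% of all genes) and 5 for siKlf6 (5.76%). For siRest edgeR gave 0 members, 2 at an unadjusted p below 0.05 (Kcnmb4 and Kcnj12), and DESeq2 gave 0. Kcnh6, with its RE1 part, stood at 13.1 CPM on average against 13.2 CPM. A link between that match and the Kcnh6 level was not tested. Against the other knockdowns 3 members were higher with siRest, Kcnma1, Kcnmb4 and Kcnt1 (3.36% of all genes called, 2.23% as higher and 1.13% as lower). That mean holds siAtf3, where Kcnt1 and Kcnma1 were called lower than in siCONTROL, and siJun and siStat3, where Kcnma1 was. Kcnmb4 averaged 21.1 CPM in siAtf3 and 21.4 CPM in siJun against 30.8 CPM in siCONTROL. None of these 3 members was called in siRest against siCONTROL.

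**Figure D3:**
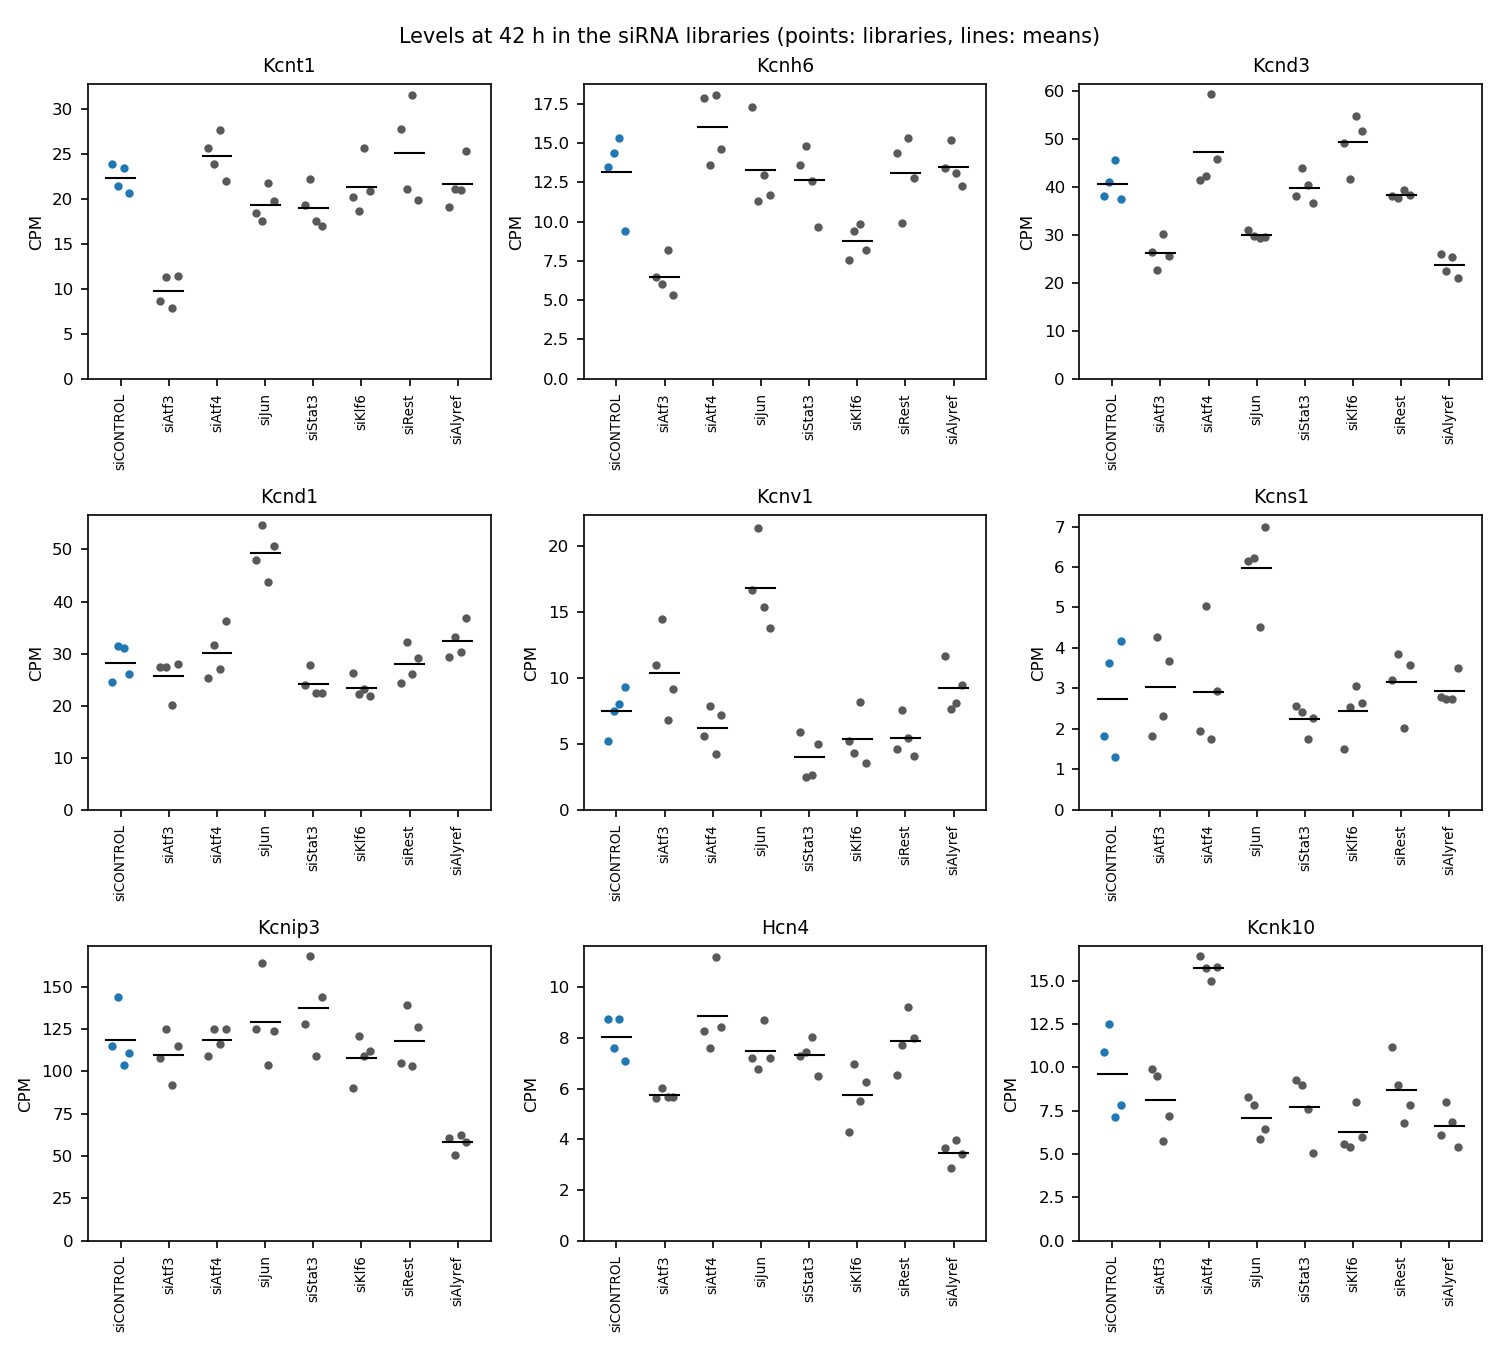
CPM (y axes, from 0) of 9 channel genes in the 8 siRNA groups at 42 h (x axes); points are the 4 libraries of a group (siCONTROL in blue) and lines are means. Kcnt1 and Kcnh6 are lowest in siAtf3, Kcnd1, Kcnv1 and Kcns1 highest in siJun, Kcnip3 and Hcn4 lowest in siAlyref and Kcnk10 highest in siAtf4; Kcnd3 is low in siAtf3, siJun and siAlyref.

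Kcnma1 and Kcnd3 recurred in these comparisons. Kcnma1 averaged 33.3 CPM in siCONTROL, 41.4 in siAtf4, 26.1 in siAtf3, 26.9 in siJun and 25.0 in siStat3, and Kcnd3 averaged 40.5 CPM in siCONTROL, 26.3 in siAtf3, 29.9 in siJun and 23.6 in siAlyref. Each of these differences is measured from the same siCONTROL libraries. Of 25 channel partners tested, 1 was higher (Dlg1) and 2 lower (Ank3, Lgi1) with siAtf3, and 2 were higher with siAtf4 (Ank3, Lgi1). With siJun 1 was higher (Pex5l, a trafficking partner of HCN channels) and 1 lower (Lgi1). With siStat3 2 were lower (Amigo1, Cntn2) and with siKlf6 1 was (Amigo1). With siRest 1 was lower (Rest itself) and with siAlyref 1 was (Cntn2). The shares of all genes called were 11.5% with siAtf3, 6.91% with siAtf4, 7.78% with siJun and 3.03% with siStat3. They were 1.85% with siKlf6, 0.202% with siRest and 4.26% with siAlyref. Pex5l rose from 52.5 ± 7.53 to 81.3 ± 2.93 CPM with siJun (SD, n = 4; adjusted p = 1.71e-05), and Lgi1 fell from 39.4 ± 2.62 to 18.3 ± 3.30 CPM with siAtf3 (adjusted p = 3.59e-08).

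Atf4 mRNA raised 5 channel genes and lowered 0 against GFP mRNA, of 60 tested. Of all 13857 genes tested 4.84% were called, 2.76% as higher and 2.09% as lower. Kcnt1 stood at 22.1, 17.2, 24.5 and 16.5 CPM with GFP mRNA and at 33.1, 31.2, 33.3 and 37.5 CPM with Atf4 mRNA (1.68-fold, adjusted p = 0.0059). Kcna2 stood at 8.66, 7.33, 6.62 and 8.80 CPM and at 12.1, 17.2, 13.2 and 21.2 CPM (2.04-fold, adjusted p = 0.012). Kcnip2 stood at 12, 8.88, 13.0 and 15.4 CPM and at 24.4, 21.4, 26.3 and 31.9 CPM (2.12-fold, adjusted p = 0.00669). In all 3 the groups did not overlap, and between time 0 and 42 h in siCONTROL these genes had fallen 6.86-fold, 14.8-fold and 15.2-fold. Kcnmb1 (1.71 ± 0.213 to 3.73 ± 0.879 CPM) and the sodium-activated channel Kcnt2 (2.57 ± 1.22 to 5.91 ± 0.559 CPM) also passed (SD, n = 4; adjusted p of 0.0385 and 0.0292). On the filter's own scale, which uses no TMM factors, Kcnmb1 was below the cutoff of 2.25 CPM in all GFP libraries. Kcnt2 reached that cutoff in 2 of them. The Kcnmb1 call ended without any 1 of 7 libraries (all but ATF4_mRNA replicate 1; adjusted p 0.0647 to 0.104), and that of Kcnt2 without GFP_mRNA replicate 2, 3 or 4 or ATF4_mRNA replicate 2, 3 or 4 (0.0682 to 0.0841). The 2 groups fitted alone ended both calls (Kcnt2 at 0.0625), and no filter and DESeq2 also ended that of Kcnmb1 (0.0628 to 0.084 over these 3 settings).

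Atf4 with Cebpg, a C/EBP-family partner of Atf4, raised 12 channel genes and lowered 2 against GFP mRNA, where 24.6% of all genes tested were called, 12.4% as higher and 12.2% as lower. Kcng4, a silent subunit, stood at 0.721, 0.819, 0.446 and 0.629 CPM with GFP mRNA and at 7.59, 7.24, 5.78 and 6.29 CPM with both mRNAs, 9.89-fold higher (log2 fold change 3.31 ± 0.35, SE; adjusted p = 1.93e-05). Kcnf1, another silent subunit, stood at 0.450, 0.0718, 0.791 and 0.298 CPM and at 3.59, 2.94, 2.64 and 2.67 CPM (7.87-fold, adjusted p = 0.00201). Both were below the cutoff in every GFP mRNA and Atf4 mRNA library, so they passed the filter through the group with both mRNAs alone. Their means with both mRNAs, 6.73 and 2.96 CPM, were near those at time 0 (6.01 and 2.94 CPM), which come from the other table. Kcnt2 stood at 4.37, 1.66, 2.04 and 2.19 CPM with GFP mRNA and at 10.7, 17.3, 12.2 and 13.3 CPM with both (5.19-fold, adjusted p = 3.79e-05), and Kcnt1 at 46.9, 50.7, 59.5 and 54.3 CPM (2.65-fold, adjusted p = 7.95e-06). Kcnip1 stood at 3.69, 4.34, 3.07 and 5.73 CPM and at 12.8, 18.3, 14.3 and 26.3 CPM (4.31-fold, adjusted p = 0.000506). None of these groups overlapped.

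Other genes that rose with both mRNAs were Kcnmb1 (3.83-fold), the inward rectifier Kcnj16 (3.39-fold), Kcnip2 (2.13-fold), Kcna2 (2.07-fold), Kcnc2 (1.79-fold), Kcnd1 (1.55-fold) and Kcns3 (1.41-fold). Kcnmb1 was below the filter's cutoff in every GFP library. Kcnj16 reached the cutoff in 1 GFP library and Kcnt2 in 2. The leak-family gene Kcnk12 was among those that fell (23.5 ± 4.77 to 15.8 ± 3.49 CPM, SD, n = 4; adjusted p = 0.0472). The Kcnk12 call ended without GFP_mRNA replicate 1, 2 or 3 or Atf4_mRNA_Cebpg_mRNA replicate 2, 3 or 4 (adjusted p 0.051 to 0.158), that of Kcnj16 without GFP_mRNA replicate 2, 3 or 4 or Atf4_mRNA_Cebpg_mRNA replicate 1, 2 or 4 (0.0576 to 0.0744), and that of Kcns3 without GFP_mRNA replicate 3 or Atf4_mRNA_Cebpg_mRNA replicate 2 (0.0613 to 0.0683). The Kcnk12 call also ended with RLE size factors, no filter and DESeq2 (0.0524 to 0.0704). Of the 48 members at the cutoff in all 8 libraries, 7 were higher and 2 lower.

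**Figure D4:**
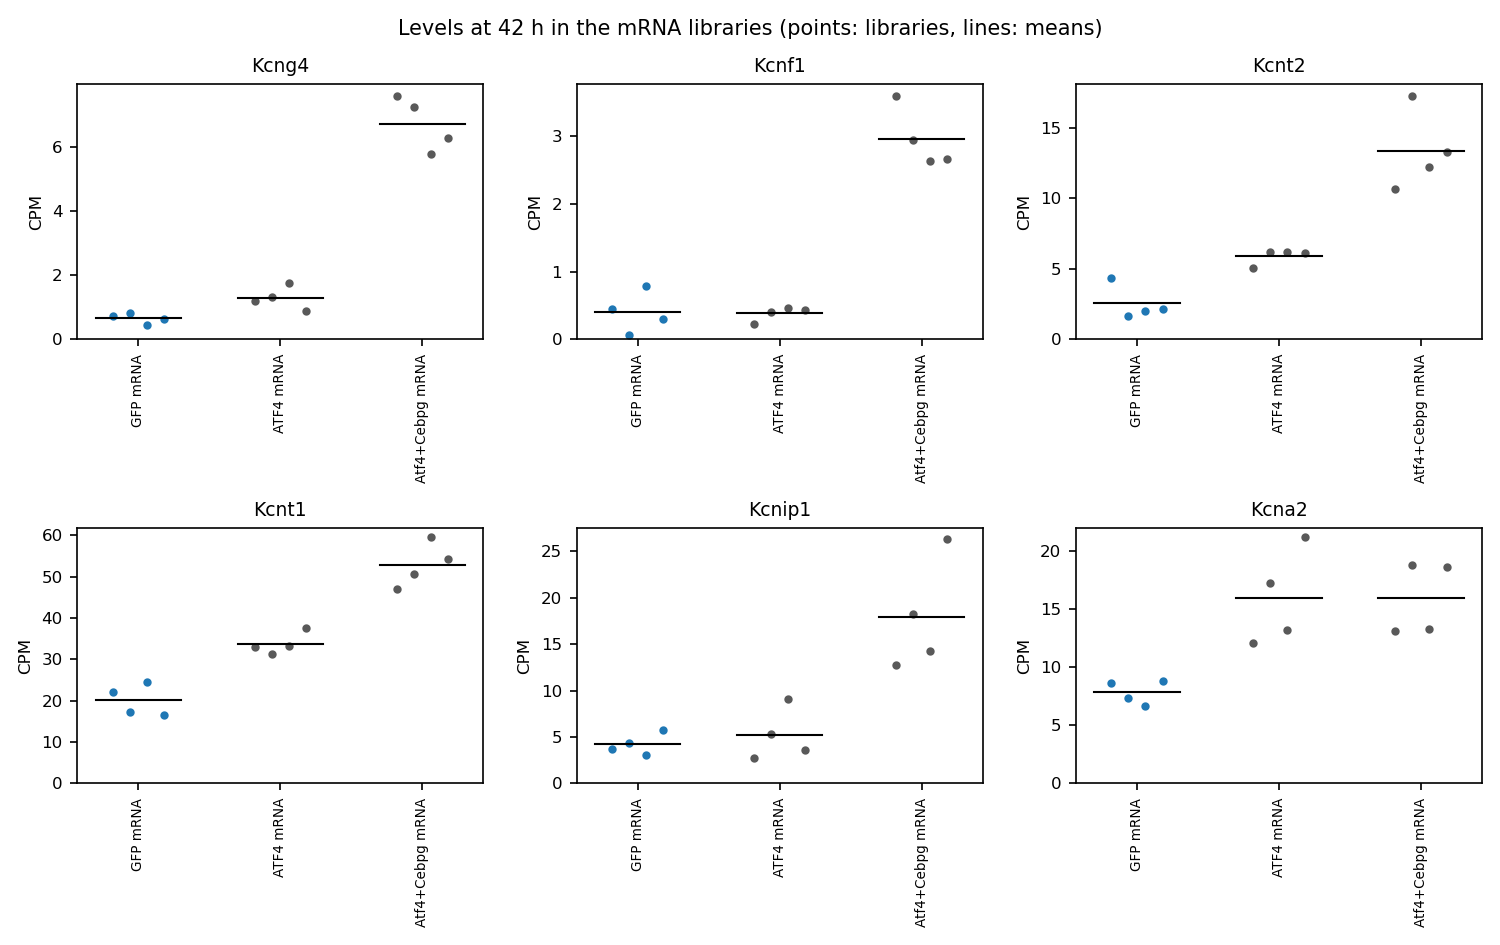
CPM (y axes, from 0) of 6 channel genes in the 3 mRNA groups at 42 h (x axes); points are the 4 libraries of a group (GFP mRNA in blue) and lines are means. Kcng4, Kcnf1 and Kcnip1 have their highest means with both mRNAs (6.73, 2.96 and 17.9 CPM), Kcnt1 and Kcnt2 are higher with Atf4 mRNA and higher again with both, and Kcna2 is alike in the 2 groups that received Atf4 mRNA (16.0 and 15.9 CPM).

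Adding Cebpg to Atf4 was tested directly, and 6 members were higher and 0 lower than with Atf4 mRNA alone. Of all genes tested 6.6% were called, 4.5% as higher and 2.1% as lower. Kcnf1 was 7.14-fold higher (adjusted p = 0.00932), Kcng4 5.09-fold (0.000699), Kcnip1 3.42-fold (0.00538), Kcnt2 2.30-fold (0.0107) and Kcnt1 1.57-fold (0.0073), all with no overlap between the 4 libraries of each group. Kcnf1 and Kcng4 were below the cutoff in every Atf4 mRNA library and every GFP mRNA library. They thus passed the filter through the group with both mRNAs alone, and the count of 6 rests in part on that filter. Of the 50 members at the cutoff in all 8 libraries compared, 4 were higher and 0 lower. Kcnab1, whose promoter window with the C/EBP-ATF composite is shown above, stood at 68.7, 78.8, 85.4 and 85.5 CPM with Atf4 mRNA and at 107, 123, 132 and 112 CPM with both (1.49-fold, adjusted p = 0.00891). Its level with GFP mRNA, 99.6 CPM on average, lay between them, and its difference from either missed the threshold (adjusted p of 0.142 and 0.119). The windows searched for Kcnf1, Kcng4, Kcnip1 and Kcnt2 held no match to the composite, and Kcnt1 had no entry to search. A link between the composite and these changes was not tested. These 6 calls were kept in every alternative run. The 3 mRNA comparisons share libraries. Atf4 itself averaged 14088 ± 3884 CPM with Atf4 mRNA and 20731 ± 9552 CPM with both (SD, n = 4). No group received Cebpg alone, so added Cebpg and a different Atf4 level cannot be told apart.

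Set side by side, Kcnt1 was 2.26-fold lower with siAtf3 and 1.68-fold and 2.65-fold higher with Atf4 mRNA and with both mRNAs, while with siAtf4 it was not called (means of 24.8 and 22.3 CPM, 1.11-fold, adjusted p = 0.642). Kcna2, Kcnip2, Kcnmb1 and Kcnt2, raised by Atf4 mRNA, were likewise not called with siAtf4 (adjusted p of 0.845, 0.578, 0.424 and 0.819). Kcnd1 and Kcnc2 were higher both with siJun and with both mRNAs.

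**Figure D5:**
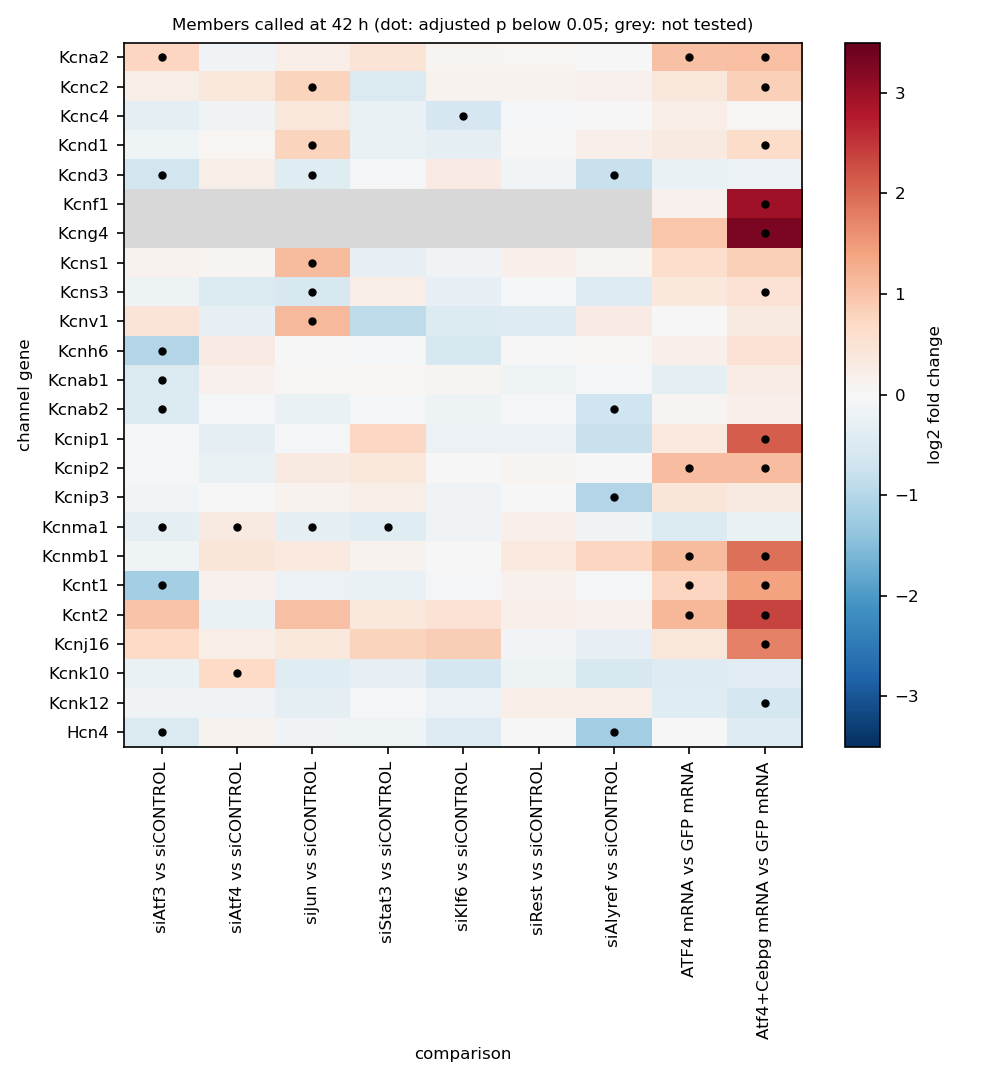
Log2 fold change (colour, from blue below 0 to red above 0) of 24 channel genes called in at least 1 of 9 comparisons at 42 h; rows are genes by role, columns are comparisons and dots mark adjusted p below 0.05, with grey for genes not tested. Values run from -1.21 (Hcn4, siAlyref) to 3.31 (Kcng4, both mRNAs), and the siRest column has no dot.

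Partners and markers in the mRNA libraries moved beside these genes. With Atf4 mRNA 2 of 25 partners tested were lower (Cntn2, Lgi1), and with both mRNAs 4 were higher (Cntnap2, Dnmt3a, Dpp10, Pex5l) and 4 lower (Ank3, Cntn2, Ehmt2, Lgi1); between the 2, Dlg2 and Dnmt3a were higher. The shares of all genes called were 4.84% with Atf4 mRNA, 24.6% with both mRNAs and 6.6% between the 2. Dpp10 went from 11.5 ± 2.45 to 24.4 ± 4.19 CPM with both mRNAs (SD, n = 4; adjusted p = 0.00123). Nociceptor markers were higher in 4 of 8 with Atf4 mRNA (summed 2936 to 3564 against 2311 to 2724 CPM with GFP mRNA) and in 7 of 8 with both (2930 to 4247 CPM). Pan-neuronal markers were lower in 2 of 10 with Atf4 mRNA (9787 to 10641 against 10900 to 12405 CPM) and lower in 3 and higher in 1 with both (9001 to 10442 CPM). The part of these markers in the channel results was not tested.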

How the data were processed

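RNA from 48 libraries (Illumina Stranded mRNA Prep, per the labels' protocols) was measured in 2 tables of 9 and 3 groups. Their values are expected counts per gene, as deposited by the authors; the submitters' processing notes name kallisto and the GRCm39 build. Which kallisto version, transcript annotation or scaling was used is not given in the sources used here. In single-transcript genes small values times length clustered at 1 constant per library (66.8% to 83.1% of genes within 4%), as in counts made from TPM. Totals of 1539198 to 6621566 limit the precision of low genes. No 2 columns were identical, and 0 value columns were left unused.

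Symbols and biotypes came from GENCODE M21 (95.1% of IDs matched). Counts were rounded and tested with edgeR 4.0.16 in R 4.3.3 (filterByExpr, TMM, quasi-likelihood F-test, Benjamini-Hochberg over all genes tested, threshold 0.05). The time 0 comparison was fitted on its 2 groups, the knockdowns on all 8 siRNA groups at 42 h, and the mRNA comparisons on all 3 mRNA groups. Levels use unrounded values, and SDs are over 4 libraries. DESeq2 1.42.0 and the other alternatives are in the closing section. The scripts were tested on simulated data.

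The members, gene lists and tests were chosen with earlier results of these data known. Genes were named by rule: in the time 0 comparison the 12 called members with the largest rise and the 12 with the largest fall, elsewhere the called members (the 12 with the largest change where more were called), the members most studied in sensory neurons, and the 10 highest at time 0 and in siCONTROL. Kcnmb4 and Kcnj12 in siRest, Kcnf1 at time 0 and other members given in passing were named after their values were seen. Some named members are not reported here; counts and sums include them, the plots of single genes do not. The main tests do not pair libraries by replicate number. Same-number correlations ran from 0.034 to 0.18, and in 0 comparisons was every pair above the threshold of 0.1. In the time 0 comparison, though, 8 of 8 libraries correlated best with their own number. Pairing by number is thus possible, and the main tests leave it out.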

Additional observations from a re-analysis of the deposited data

Results flagged for a closer look

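Of 151 sets of 4 libraries looked at (a named gene in a group), 3 held a library far from the other 3, or 1.99%, where chance gives about 1 in 20. Hcn4 stood at 6.02 CPM in siAtf3 replicate 2 and at 5.64 to 5.67 CPM in the others. Kcnt2 stood at 5.07 CPM in ATF4_mRNA replicate 1 and at 6.15 to 6.23 CPM in the others. Kcnj6 stood at 4.34 CPM in siCONTROL replicate 3 and at 2.98 to 3.11 CPM in the others. In each case the other 3 libraries lay unusually close together.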

How the results depend on the processing

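Numbers of called channel genes were recomputed with RLE size factors, no filter on low counts, unrounded values, a replicate block, another set of groups in the fit, DESeq2, and each library left out. The 52 called between time 0 and 42 h ranged from 51 to 57, and the 6 between the mRNA groups with and without Cebpg stayed at 6. The 14 with both mRNAs against GFP ranged from 12 to 20. For siAtf4 the 2 became 1 with no filter, 1 with the groups fitted alone, 6 with DESeq2 and 0 to 2 with a library left out. For siJun the 7 became 4 with no filter, 4 with the groups alone and 4 to 7 with a library left out. The 1 of siStat3 became 0 with the groups alone and 0 to 1 with a library left out, and the 1 of siKlf6 became 0 with the groups alone, 0 with no filter and 0 to 1 with a library left out. The 5 of ATF4_mRNA became 3 to 5 with a library left out. With the replicate block, which the main tests leave out, siAtf3 went from 9 to 15, siAtf4 to 6, siJun to 14, siKlf6 to 2 and siAlyref from 4 to 8. Between 6 and 8 of 8 libraries (6 of 6 for siKlf6) correlated best with their own number, a hint of pairing from the data and not the design. The cause of these shifts was not tested. No named gene that was called changed direction in any alternative. Of 2 genes not called between time 0 and 42 h, Kcnmb4 changed sign to 0.02 with no filter and 0.002 with DESeq2 and ran from -0.091 to 0.132 with a library left out, and Kcna4 ran from -0.273 to 0.031 with a library left out. Most members under about 2 CPM did not pass the filter on low counts.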
